A study of Homo sapiens with 12 samples.

Results

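The 10 integrin subunits of epithelial cells (ITGA2, ITGA3, ITGA5, ITGA6, ITGAV, ITGB1, ITGB3, ITGB4, ITGB5 and ITGB8) were examined in PC-3 cells. Members were the genes on this list to which the RefSeq transcript of a non-control array probe mapped, which took in all 10 of them, read by 11 probes, among 25471 genes tested. PC-3 is an established androgen-independent cell line from a prostate adenocarcinoma. Expression was measured on two-colour arrays in 6 groups of 2 samples. Stable lines were pools of G418-selected cells, not clones, that carried a pcDNA3.1-based plasmid for the PIM1 kinase or the empty vector, and all of them had also received Td-Tomato. The group called control carried the empty vector and the group called PIM1 the PIM1 plasmid. The WT and MM groups were vector cells transfected transiently with NFATC1, either wild-type (WT) or a multi-site mutant (MM) whose serines and threonines at the PIM1 phosphorylation sites had been changed to alanine, and the PIM1 + WT and PIM1 + MM groups were the stable PIM1 cells given the same forms. The labels name no transient plasmid for the control and PIM1 groups. The sources used here do not say that the 2 samples of a group came from separate transfections, so the p-values measure the spread between these samples, which may be technical.

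Integrins are transmembrane receptors made of 1 alpha and 1 beta subunit that link the extracellular matrix to the actin cytoskeleton, and the alpha subunit largely sets which matrix protein is bound. ITGB1 is the shared beta partner of ITGA2 (a collagen receptor), ITGA3 and ITGA6 (laminin receptors), ITGA5 (the fibronectin receptor) and ITGAV. ITGB4 pairs with ITGA6 and anchors epithelial cells to the basement membrane through hemidesmosomes. ITGAV also pairs with ITGB3, ITGB5 and ITGB8, which bind RGD-containing ligands such as vitronectin or, for ITGB8, latent TGF-beta. NFATC1 is a calcium-regulated transcription factor that recognises a GGAAA core and often binds next to AP-1 factors, whose site is TGAGTCA. The comparisons ask how integrin mRNA differs with stable PIM1 and with the NFATC1 form that PIM1 can or cannot phosphorylate.

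Promoter sequence from RefSeq (GRCh38.p14) was held for 7 of the 10 members, at 12 annotated starts, and not for ITGA3, ITGB3 or ITGB4. The 250 bases before the start of ITGA5 and of ITGB1 are shown because both genes were called in the interaction described below. They lie on the minus strand at chr12:54419267-54419516 for ITGA5 and at chr10:32958231-32958480 for ITGB1 (first listed start), and are written 5′ to 3′ along the gene, with GGAAA or its reverse complement TTTCC in capitals.
ITGA5: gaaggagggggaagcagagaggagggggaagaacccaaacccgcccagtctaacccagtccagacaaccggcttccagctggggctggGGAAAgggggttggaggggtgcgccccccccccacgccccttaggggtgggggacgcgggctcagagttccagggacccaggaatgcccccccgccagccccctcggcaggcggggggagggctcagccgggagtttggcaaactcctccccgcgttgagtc
ITGB1: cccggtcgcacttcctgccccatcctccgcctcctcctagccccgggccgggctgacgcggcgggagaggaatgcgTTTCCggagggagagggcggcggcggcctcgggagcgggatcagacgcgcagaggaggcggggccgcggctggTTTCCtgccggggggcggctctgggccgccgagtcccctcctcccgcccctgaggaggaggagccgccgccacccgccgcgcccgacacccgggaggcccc
ITGA5 held 1 such core, with its first base at -162 from the start, and ITGB1 held 2, at -174 and -101. On either strand, GGAAA was found at 6 of the 12 member starts, while 55.6% of the 35116 promoter windows of the same length in the RefSeq table held it. TGAGTCA or its reverse complement TGACTCA was found at 0 of the 12 starts and in 4.20% of all windows. A match is a run of letters and not a known binding site.

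Each array carried a Cy3 and a Cy5 sample. Cy3 was used for control, WT and PIM1 + WT cells, and Cy5 for the PIM1, MM and PIM1 + MM groups, with no dye swap, so a comparison across these sets also compares dyes. Channel medians of the raw intensity ran from 86 to 139 for Cy3 and from 176 to 318 for Cy5, and precision is limited by the number of arrays. Of the epithelial markers, KRT8, KRT18, KRT19 and EPCAM were well above background in 12 of 12 channels, with log2 intensities between 8.47 and 16.2, and CDH1, which encodes E-cadherin, was so in 9 channels, between 6.32 and 6.78. This measure alone did not set epithelial markers apart, since the leukocyte markers PTPRC, CD14 and ITGB2, the endothelial markers PECAM1 and CDH5 and the fibroblast marker COL1A1 also passed it in 12 channels, with log2 intensities between 6.43 and 9.05. ITGAL passed in 0 channels, and CD3E, VWF, COL1A2 and PDGFRB in 3 to 7. The gene targeted by the stable plasmid was not called between groups labelled with and without stable PIM1. PIM1 differed by 0.25 on the log2 scale between PIM1 and control cells, by -0.23 between PIM1 + WT and WT cells and by 0.15 between PIM1 + MM and MM cells, with limma adjusted p = 0.107, 0.136 and 0.338, and whether its probe lies in the transfected sequence is not known. Between PIM1 + WT and PIM1 + MM cells, across dyes, PIM1 differed by -0.36 (limma adjusted p = 0.0401). Stable PIM1 is therefore used here as the samples are labelled. The study reported overexpression of PIM1 and/or NFATC1 in the samples by qPCR. The NFATC1 difference was -1.82 on the log2 scale for WT minus MM cells and -2.07 for PIM1 + WT minus PIM1 + MM cells, so the NFATC1 forms also differ in the NFATC1 mRNA signal. Within a dye, the NFATC1 difference was 2.73 for PIM1 + MM minus PIM1 (adjusted p = 9.31e-07), while the difference between WT and control cells was 0.44 and was not called (adjusted p = 0.0692). With stable PIM1, NFATC1 differed by -0.44 in PIM1 + WT minus WT (limma adjusted p = 0.00203) and by -0.20 in PIM1 + MM minus MM (adjusted p = 0.104). Across dyes it differed by -0.67 in PIM1 minus control (adjusted p = 0.000231). Whether these NFATC1 differences have a part in the results was not tested.

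All 11 member probes were well above background in each of the 12 channels, and no spot was saturated. The dimmest were ITGB8, ITGB3 and ITGA2, whose lowest raw intensities were 1.49, 1.52 and 1.86 times the 90th percentile of that channel's negative controls, while ITGA3 and ITGB4 stayed at least 31.8 and 42.2 times above it. Levels below are quantile-normalized log2 intensities, with the 2 samples of each group given in the order replicate 1 and replicate 2. Averaged over 6 samples each, 6 of the 10 members differed between Cy3 and Cy5 (18.3% of all genes did), from ITGA5, 0.43 higher in Cy3, to ITGB8, 0.34 lower in Cy3. Dye and group cannot be told apart in these averages. Across the 6 group means, the members differed in how far they ranged. ITGA3 spanned 1.78 on the log2 scale, ITGA5 1.43 and ITGB4 0.98, against a median of 0.33 over all genes, and 99.4%, 98.7% and 95.3% of genes had smaller ranges. At the other end, ITGB3 spanned 0.15 and ITGA6 0.38.

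**Figure D1:**
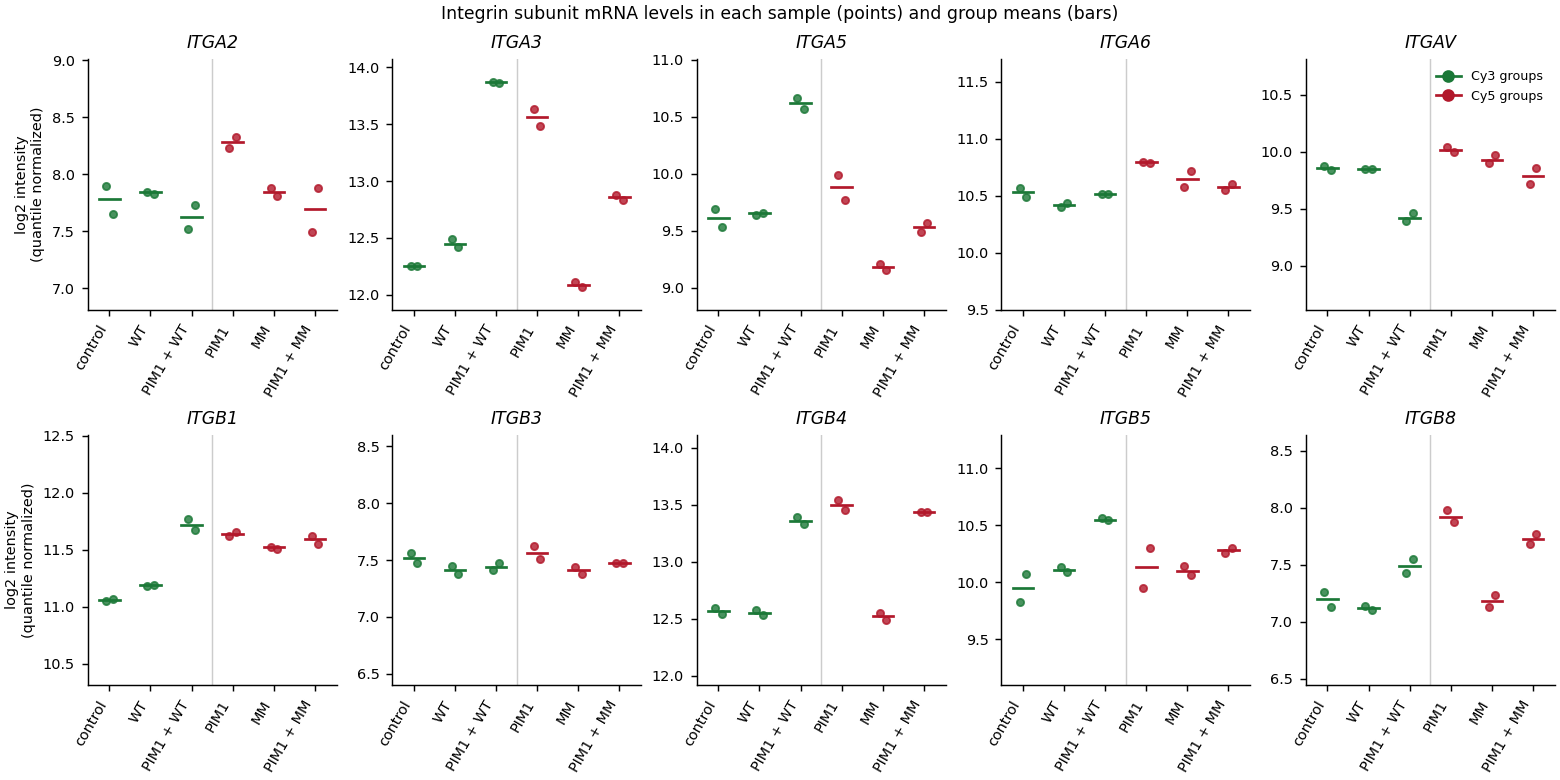
Quantile-normalized log2 intensity (y axis, with the same height of scale in each panel) of the 10 integrin subunits in the 6 groups (x axis), with points for the 2 samples and bars for their mean, Cy3 groups in green and Cy5 groups in red. ITGA3 and ITGA5 were highest in PIM1 + WT cells, ITGB4 was high in the 3 groups labelled with stable PIM1, and ITGB3 stayed between 7.38 and 7.62.

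Among the laminin receptors, ITGA3 varied most. Its level was 12.25 and 12.25 in control cells, 12.49 and 12.42 in WT cells and 13.87 and 13.86 in PIM1 + WT cells. Within Cy5 it was 12.11 and 12.07 in MM cells, 12.88 and 12.83 in PIM1 + MM cells and 13.63 and 13.48 in PIM1 cells. None of these groups overlapped with another of the same dye, and the order was PIM1 + WT, WT and control in Cy3, with WT and control not differing by the test, and PIM1, PIM1 + MM and MM in Cy5.

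ITGB4 was 12.59 and 12.54 in control, 12.58 and 12.53 in WT and 13.39 and 13.33 in PIM1 + WT cells. In Cy5 it was 12.55 and 12.49 in MM, 13.44 and 13.44 in PIM1 + MM and 13.54 and 13.45 in PIM1 cells. The samples with and without stable PIM1 did not overlap in either dye, while control and WT cells overlapped. Its alpha partner ITGA6 did not follow this pattern. As the median of 2 probes, ITGA6 lay between 10.40 and 10.57 in all 6 Cy3 samples and between 10.55 and 10.80 in the Cy5 samples, with PIM1 cells highest at 10.80 and 10.79. Its probes disagreed. The probe A_33_P3231447 was higher in PIM1 + WT than in WT cells by 0.30 (limma adjusted p = 0.00601), whereas A_23_P210176 differed by -0.10 (adjusted p = 0.391), so the ITGA6 values below are uncertain.

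The fibronectin receptor chain ITGA5 was 9.69 and 9.53 in control, 9.64 and 9.65 in WT and 10.66 and 10.57 in PIM1 + WT cells. In Cy5 it was 9.21 and 9.15 in MM, 9.49 and 9.57 in PIM1 + MM and 9.99 and 9.77 in PIM1 cells. PIM1 + WT samples were above all other samples, control and WT overlapped, and the 3 Cy5 groups were separate. ITGA5 was singled out in the study on these same samples, so its values are no independent evidence. ITGB1, the common beta chain, was 11.05 and 11.07 in control, 11.18 and 11.19 in WT and 11.77 and 11.67 in PIM1 + WT cells, and between 11.51 and 11.66 in all Cy5 samples. The group means of ITGB1 spanned 0.66 within Cy3 and 0.12 within Cy5. The collagen receptor chain ITGA2, a dim probe, was highest in PIM1 cells at 8.23 and 8.33. In the other groups ITGA2 was between 7.49 and 7.90, with PIM1 + MM samples as far apart as 7.49 and 7.88.

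Of the ITGAV group, ITGAV itself was lowest in PIM1 + WT cells, at 9.39 and 9.46, against 9.88 and 9.84 in control and 9.85 and 9.85 in WT cells. In Cy5 it was 10.04 and 10.00 in PIM1, 9.90 and 9.97 in MM and 9.72 and 9.86 in PIM1 + MM cells. ITGB5, a vitronectin receptor chain, was highest in PIM1 + WT cells at 10.56 and 10.55, and its control samples differed from each other, at 9.83 and 10.07, as did its PIM1 samples, at 9.95 and 10.30. ITGB8 was 7.26 and 7.13 in control, 7.14 and 7.10 in WT and 7.43 and 7.55 in PIM1 + WT cells. In Cy5 ITGB8 was 7.13 and 7.23 in MM, 7.68 and 7.77 in PIM1 + MM and 7.98 and 7.87 in PIM1 cells. The samples with stable PIM1 were above those without it in both dyes. ITGB3, the beta chain of the classical vitronectin receptor, stayed between 7.38 and 7.62 in all 12 samples.

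ITGAV and ITGB1 were each printed as 10 spots of 1 probe, which shows the error of a single spot. Within a channel the spots of ITGAV had a standard deviation with a median of 0.214, and those of ITGB1 one of 0.192. The value farthest from its fellows was an ITGAV spot in PIM1 + MM replicate 2, at 8.23 where the highest spot of that channel was at 10.16, in the first 33 rows of the array. It was flagged by the scanner software and left out of the levels above. The other members except ITGA6 rest on 1 spot of 1 probe per channel, so no such check was possible for them.

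**Figure D2:**
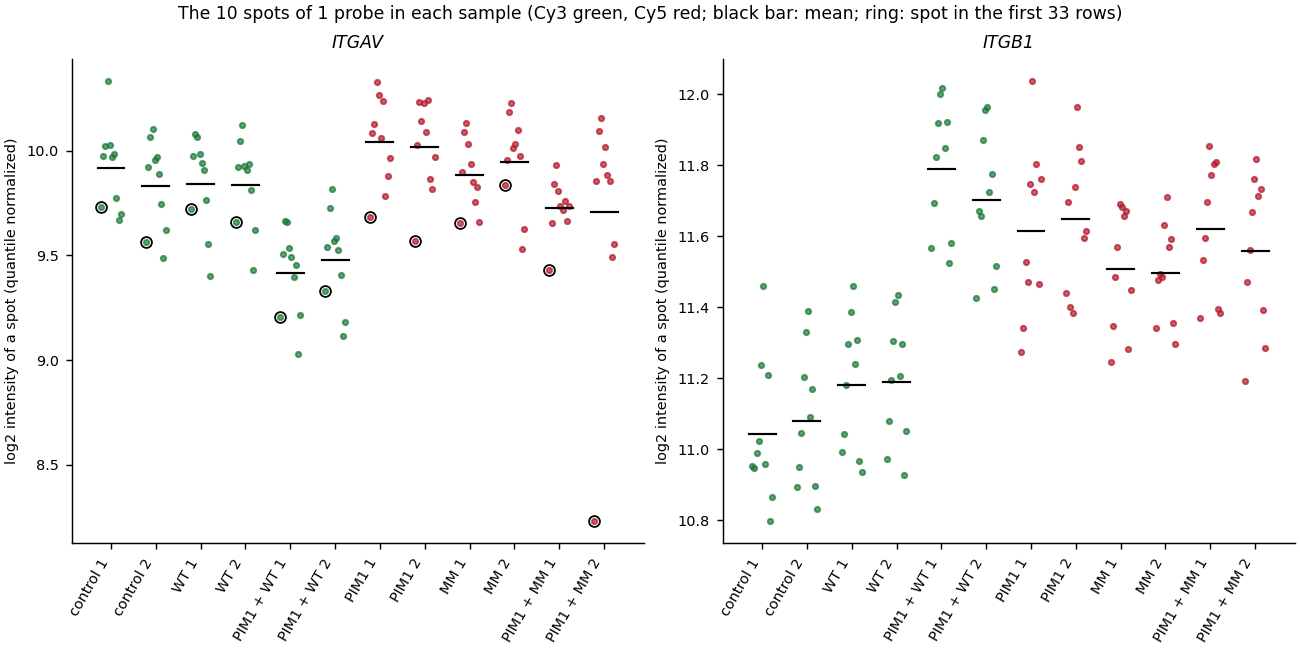
Quantile-normalized log2 intensity (y axis) of each of the 10 spots of the ITGAV and ITGB1 probes in the 12 samples (x axis), flagged spots included, with black bars for the mean over spots and rings around spots in the first 33 rows. ITGAV spots were lowest in PIM1 + WT cells apart from 1 spot at 8.23 in PIM1 + MM replicate 2, and ITGB1 spots were lowest in control and WT cells.

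Stable PIM1 under WT NFATC1 was compared within Cy3. Of the 10 members, 7 were called at an adjusted p below 0.05 in PIM1 + WT against WT cells, where 27.4% of all genes were called, 13.4% higher and 14.1% lower. ITGA3 rose by 1.42 on the log2 scale (standard error 0.0641, 2.67-fold, limma adjusted p = 2.20e-06), ITGA5 by 0.97 (standard error 0.0869, 1.96-fold, adjusted p = 6.34e-05) and ITGB4 by 0.81 (standard error 0.0594, 1.75-fold, adjusted p = 2.24e-05). ITGB1 rose by 0.54, ITGB5 by 0.45 and ITGB8 by 0.37, and ITGAV fell by 0.42. The samples of 9 members did not overlap between these groups, as was the case for 67.7% of all genes. ITGB5 lost its call without any 1 of the 4 samples, with adjusted p between 0.0693 and 0.0893, and ITGB8 without PIM1 + WT replicate 2 (0.31, adjusted p = 0.0555). With median centring ITGB4 was at 0.50, ITGB1 at 0.24, ITGB5 at 0.20 and ITGAV at -0.67, and ITGB8 was at 0.68 when the scanner's processed signal was used. The median log2 intensity of the spike-in spots was 10.37 and 10.48 in PIM1 + WT channels, against 10.92 to 11.40 in the other Cy3 channels, and its part in these differences was not tested.

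With stable PIM1 under MM NFATC1, compared within Cy5, 4 members rose in PIM1 + MM against MM cells, where 19.4% of all genes were called, 10.0% higher and 9.40% lower. They were ITGB4 by 0.92 (standard error 0.0594, 1.90-fold, limma adjusted p = 1.91e-05), ITGA3 by 0.77 (standard error 0.0641, 1.70-fold, adjusted p = 8.16e-05), ITGB8 by 0.55 (adjusted p = 0.00127) and ITGA5 by 0.35 (adjusted p = 0.0211). The ITGA5 call was lost without MM replicate 1, MM replicate 2 or PIM1 + MM replicate 2 (0.38, 0.32 and 0.31, adjusted p = 0.0661, 0.115 and 0.102), and median centring moved ITGA5 to 0.20. The processed signal moved ITGB8, a dim probe, to 1.08. ITGB1 differed by 0.07, with a 95% interval of -0.06 to 0.20. The same 4 genes, ITGA3, ITGA5, ITGB4 and ITGB8, were thus called higher with stable PIM1 within both dyes, as were 6.75% of all genes. The spike-in median was 11.80 and 11.82 in PIM1 + MM channels and 12.52 in both MM channels, and its part was likewise not tested.

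Between PIM1 and control cells, where dye and stable PIM1 cannot be told apart, 6 of 10 members were called, all higher in PIM1 cells, against 25.1% of all genes called and 12.7% called higher. ITGA3 was 1.31 higher (standard error 0.0641, 2.47-fold, limma adjusted p = 3.01e-06), ITGB4 0.93, ITGB8 0.73, ITGB1 0.58, ITGA2 0.50 and ITGA6 0.27. With each channel centred on its median in place of quantile normalization, ITGB1 and ITGA6 were at -0.11 and -0.35 in this comparison, ITGA3, ITGB4 and ITGA2 at 0.54, 0.17 and 0.27, and ITGB8 was the only member still called, while the share of all genes called was 34.1%. The processed signal moved ITGB8 from 0.73 to 1.33. ITGA2 was not called without control replicate 2 (0.38, adjusted p = 0.137) or PIM1 replicate 2 (0.45, adjusted p = 0.0954), nor ITGA6 without control replicate 2 (0.23, adjusted p = 0.0863). ITGA5 differed by 0.27 (limma adjusted p = 0.0509), and was called with the array as a random or a fixed block. These blocks gave 8 members each, where 34.8% and 34% of all genes were called. With median centring ITGA5 differed by -0.27. Median centring also left no member called in any of the other 7 comparisons, where between 0 and 489 of all genes were called. It moved the median of all genes to 0.13 here, to 0.14 in PIM1 + WT minus WT and to -0.11 in PIM1 + WT minus PIM1 + MM.

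**Figure D3:**
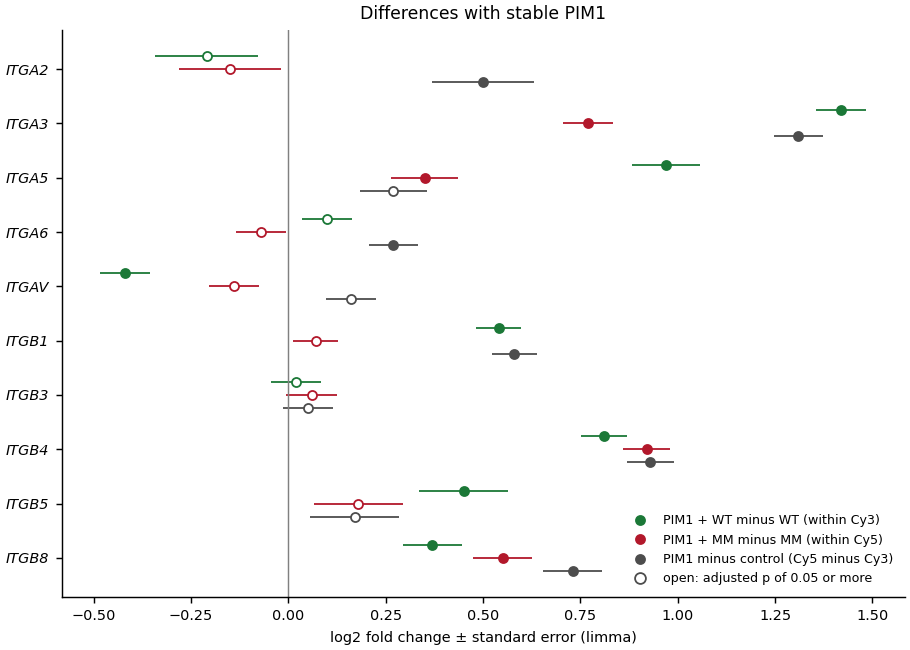
Log2 fold change with its standard error (x axis) of each subunit (y axis) in the 3 comparisons of cells labelled with and without stable PIM1, with filled points at an adjusted p below 0.05. ITGA3, ITGB4 and ITGB8 were filled and above 0 in all 3, ITGA5 in the 2 comparisons within a dye, and ITGAV fell in PIM1 + WT cells by 0.42.

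Between the NFATC1 forms without stable PIM1, 2 members were called, where 0.793% of all genes were. ITGA3 was 0.36 higher in WT than in MM cells (standard error 0.0641, limma adjusted p = 0.0435) and ITGB1 was 0.33 lower (standard error 0.0574, adjusted p = 0.0405). Without any 1 of the 4 samples both calls were lost, with adjusted p between 0.185 and 0.407 for ITGA3 and between 0.216 and 0.356 for ITGB1. Median centring turned the ITGB1 difference to 0.14 and moved ITGA3 to 0.84. ITGA5 was 0.46 higher in WT cells with an adjusted p of 0.0526, and 0.85 higher with median centring. For ITGA6, the probe A_33_P3231447 was 0.36 lower (adjusted p = 0.0346) and the other probe 0.10 lower (adjusted p = 0.709).

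With stable PIM1, 3 members differed between the forms, where 16.1% of all genes did. With the WT form ITGA5 was 1.08 higher (95% interval 0.89 to 1.28, 2.12-fold, limma adjusted p = 0.000104) and ITGA3 1.01 higher (95% interval 0.87 to 1.16, 2.02-fold, adjusted p = 4.02e-05). Among all genes, 0.345% were called with a log2 difference of at least 1 in size. ITGAV differed by -0.37 (adjusted p = 0.00504), by -0.24 with loess (adjusted p = 0.0233) and by -0.06 with median centring (adjusted p = 0.893), and was not called without PIM1 + WT replicate 1 (-0.33, adjusted p = 0.0535). ITGB4 differed by -0.08 with a 95% interval of -0.22 to 0.05. Both this comparison and the one without stable PIM1 set Cy3 against Cy5 on shared arrays, and the correlation within arrays was 0.42. With the array as a random block, ITGB1, ITGB5 and ITGB8 were called as well, 6 members in all where 26.9% of all genes were called, and as a fixed block ITGB5 and ITGB8 were, 5 members where 25.6% of all genes were. Without stable PIM1, the random block added ITGA5 and ITGA6 to the calls, 4 members where 4.81% of all genes were called.

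In the interaction, the WT minus MM difference with stable PIM1 minus that without it, any constant dye effect on a gene cancels. Of the 10 members, 3 were called in it, where 1.71% of all genes were called higher and 2.21% in either direction. The WT minus MM difference was larger with stable PIM1 for ITGA3 by 0.65 (standard error 0.0907, 95% interval 0.44 to 0.85, limma adjusted p = 0.0126), for ITGA5 by 0.62 (standard error 0.123, 95% interval 0.34 to 0.90, adjusted p = 0.0400) and for ITGB1 by 0.47 (standard error 0.0812, 95% interval 0.28 to 0.65, adjusted p = 0.0247). For ITGB1 it went from -0.33 to 0.14. Within the slides that hold replicate 1 and replicate 2, the interaction was 0.62 and 0.68 for ITGA3, 0.74 and 0.50 for ITGA5 and 0.49 and 0.44 for ITGB1. Since the same quantity is the stable PIM1 difference under WT minus that under MM NFATC1, these 3 genes also differed more with stable PIM1 under WT than under MM NFATC1. Leaving out 1 of the 8 samples left its group with 1 sample. The standard errors of these 3 genes were larger in such fits. A call lost there therefore does not show that the sample left out made the difference. ITGA5 lost its call without any 1 of the 8 samples (adjusted p between 0.0654 and 0.176) and with normexp background correction (adjusted p = 0.0537). ITGB1 kept its call only without PIM1 + MM replicate 1 (adjusted p = 0.0220, and between 0.0630 and 0.134 without each of the other 7 samples). ITGA3 lost its call without either WT sample, MM replicate 1 or either PIM1 + WT sample (adjusted p between 0.0513 and 0.0804). The estimates themselves stayed between 0.62 and 0.68 for ITGA3, between 0.58 and 0.66 for ITGA5 and between 0.42 and 0.51 for ITGB1 as samples were left out. With median centring they were 0.39, 0.54 and 0.29, with standard errors of 0.436, 0.368 and 0.394 and an adjusted p of 1 each, and 0 of all genes were called. ITGB4, which rose with stable PIM1 in both dyes, had an interaction of -0.12 with a 95% interval of -0.31 to 0.07. The 2 probes of ITGA6 gave 0.42 (limma adjusted p = 0.0431) and -0.07 (adjusted p = 0.829). When the array was a random block, ITGAV was called in the interaction too, 4 members in all where 9.72% of all genes were called. As a fixed block it left the same 3 members called, where 5.68% of all genes were.

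**Figure D4:**
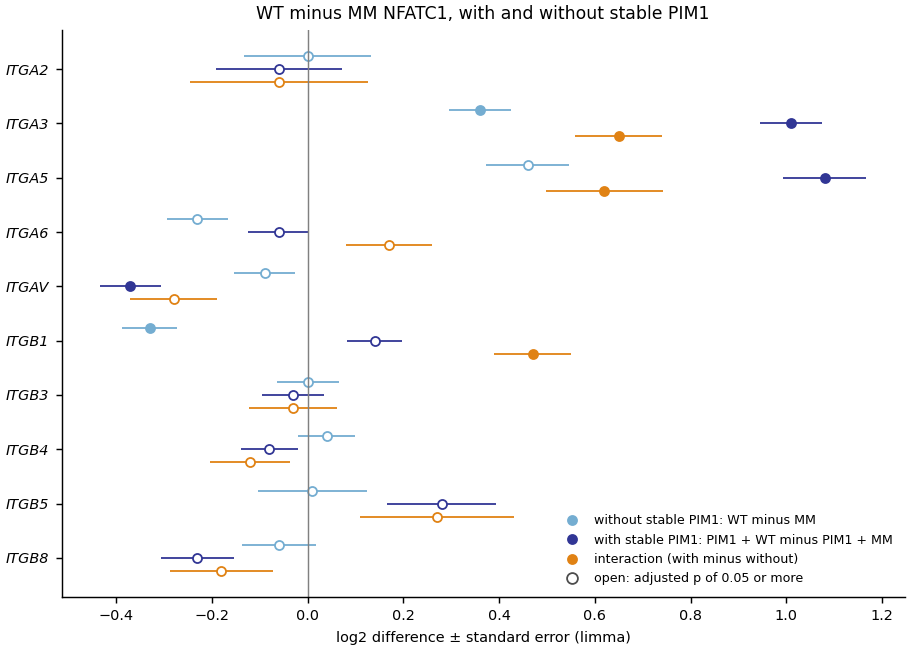
WT minus MM difference on the log2 scale with its standard error (x axis) for each subunit (y axis), without stable PIM1, with stable PIM1, and the interaction between them, with filled points at an adjusted p below 0.05. The interaction was filled for ITGA3 (0.65), ITGA5 (0.62) and ITGB1 (0.47), and ITGB4 lay near 0 in all 3.

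**Figure D5:**
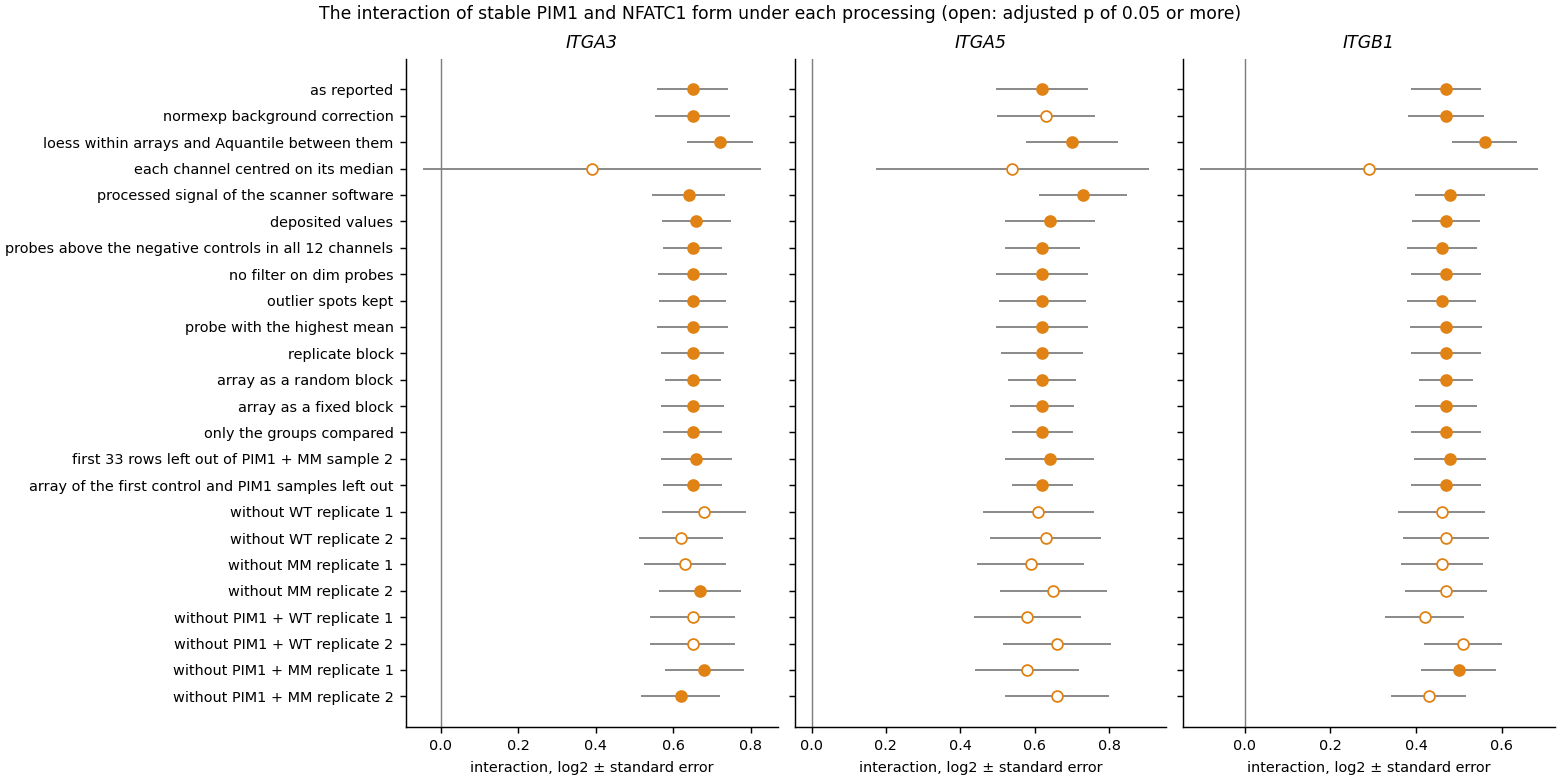
Interaction on the log2 scale with its standard error (x axis) for the 3 subunits called in it, under each processing and with each of the 8 samples left out in turn (y axis), with open points at an adjusted p of 0.05 or more. All estimates were above 0, and those with 1 sample left out were mostly open, all 8 of them for ITGA5.

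Cells given a transient NFATC1 plasmid were compared within a dye, in 2 ways, with cells whose labels name no transient plasmid. The sources used here do not say whether the latter were transfected in another way. The NFATC1 plasmid and the transfection itself therefore cannot be told apart in these comparisons. In WT against control cells, 0 members were called by limma, where 0.204% of all genes were, and 1 member (ITGA3, higher by 0.20, adjusted p = 0.288) had an unadjusted p below 0.05, as did 10.7% of all genes. In PIM1 + MM against PIM1 cells, 3 members fell, where 12.4% of all genes were called and 7.17% called lower. ITGA3 fell by 0.70 (standard error 0.0641, adjusted p = 0.000829), ITGA2 by 0.59 (standard error 0.132, adjusted p = 0.0216) and ITGA5 by 0.35 (standard error 0.0869, adjusted p = 0.0327). None of these was called when only these 2 groups were fitted (adjusted p = 0.163, 0.199 and 0.256). ITGA3 was at -0.45 with median centring and ITGA5 at -0.58 with the processed signal. ITGA2 was not called without PIM1 replicate 1, PIM1 replicate 2 or PIM1 + MM replicate 1 (adjusted p = 0.0540, 0.0714 and 0.0755), nor ITGA5 without PIM1 replicate 1, PIM1 + MM replicate 1 or PIM1 + MM replicate 2 (-0.24, -0.31 and -0.39, adjusted p = 0.129, 0.108 and 0.0796). ITGB4 differed by -0.06 with a 95% interval of -0.19 to 0.08. The comparisons of PIM1 + MM cells share their samples and are not independent of each other.

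Other genes of the integrin system were taken from lists, with at most 3 genes of a list named per comparison. Of 15 further integrin subunits tested (leukocyte, muscle and neural receptors among them), 1 was called higher and 2 lower in PIM1 + WT against WT cells, and 2 each way in PIM1 + MM against MM cells, where 27.4% and 19.4% of all genes were called, with list medians of 0.04 and 0.14. ITGA1, another collagen receptor chain, rose by 0.51 and 0.58 in these comparisons, and ITGAE, which binds E-cadherin, fell by 0.60 and 0.56. Of 23 matrix ligands tested, 9 were called higher in each of these comparisons, where 13.4% and 10.0% of all genes were, and 3 and 2 lower, where 14.1% and 9.40% were, with list medians of 0.22 and 0.23 against 0.00 over all genes. The laminin chains LAMA5 and LAMB2 rose by 1.49 and 1.11 in PIM1 + WT and by 0.70 and 0.79 in PIM1 + MM cells. In the interaction 3 of the 23 ligands were called, all higher, where 1.71% of all genes were called higher. They were LAMA5 at 0.78 (limma adjusted p = 0.0126), TGFB1 at 0.65 (adjusted p = 0.00764) and MFGE8, an RGD ligand of ITGAV receptors, at 0.54 (adjusted p = 0.0308).

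Of the 13 activators and adaptors that join the beta tails to actin, 3 rose and 3 fell in PIM1 + WT against WT cells, and 3 fell in PIM1 + MM against MM cells, where 27.4% and 19.4% of all genes were called. TLN1 encodes talin, which switches integrins to their active state. It was the 1 gene of this list called in the interaction, where 2.21% of all genes were called. Its interaction was 0.66 (standard error 0.0810, limma adjusted p = 0.00812). With stable PIM1, TNS1 fell by 0.82 within Cy3 and by 1.43 within Cy5, and FERMT1, an epithelial kindlin, fell by 0.77 and 0.49. TLN1 rose by 0.77 within Cy3 and was not called within Cy5. Of 4 inhibitors of activation, 1 rose and 2 fell in PIM1 + WT against WT cells, where 27.4% of all genes were called. They were FLNA (0.59), DOK1 (-0.43) and SHARPIN (-0.33). In PIM1 + MM against MM cells 0 inhibitors were called, where 19.4% of all genes were. Of 10 membrane partners, 4 rose and 2 fell in PIM1 + WT against WT cells, where 27.4% of all genes were called. In PIM1 + MM against MM cells 2 rose and 2 fell, where 19.4% of all genes were called. SLC3A2, the heavy chain that binds beta tails, rose by 0.81 and 0.37 in these comparisons. PLAUR rose by 0.59 and 0.43, and CD82 fell by 0.45 in PIM1 + MM cells. BSG, which encodes basigin, a glycoprotein that associates with ITGB1 receptors, had an interaction of 1.15 (standard error 0.107, limma adjusted p = 0.00452). It was the 1 membrane partner called in the interaction, where 2.21% of all genes were called. Of the 3 hemidesmosome partners of ITGB4, PLEC, which encodes plectin, rose by 0.42 in PIM1 + WT against WT cells and was not called in PIM1 + MM against MM cells, and COL17A1 was not well above background in any channel.

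The genes whose levels ran most like 2 of the members over the 12 samples were sought among 18733 genes. For ITGA5 they were CCAR2, CC2D1A, MAN2B1, AMPD2 and RAC2, with Pearson correlations between 0.989 and 0.994. For ITGB4 they were CHRM3, PLD1, GDF15, ST6GALNAC1 and GALC, with correlations between 0.995 and 0.997. Within Cy3 and within Cy5 alone these correlations were between 0.972 and 0.999. The 12 points share arrays and fall into 6 groups, so the correlations describe the order of the group means and carry no test.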

How the data were processed

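RNA of 12 samples was read on 6 two-colour Agilent arrays on 2 slides. The authors deposited, per the file headers, raw intensity (median signal), background, processed signal and outlier flags from Feature Extraction 11.0.1.1, and a table of log2 values, which matched the quantile-normalized log2 median signal of non-control spots to within 0.0844. The annotation build of the files was not used for coordinates. Groups came from the labels.

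Spots with an outlier flag were dropped and a probe's remaining spots averaged. Of 34127 probes, 31484 were kept, which passed the 90th percentile over 153 negative control spots in at least 2 of 12 channels. Log2 median intensities were quantile normalized between channels without background subtraction, and the median per RefSeq symbol was taken. A model with 1 mean per group was fitted to all 12 samples with limma 3.58.1 in R 4.3.3, which left 6 residual degrees of freedom, and 8 comparisons were made, with two-sided p-values adjusted by Benjamini-Hochberg over all 25471 genes within a comparison. A gene was called at an adjusted p below 0.05. The fit was tested on simulated data. The members, lists and tests were chosen with earlier results of these data known. All 10 members are named. From each list at most the 3 called genes with the largest change per comparison were eligible, and for ITGA5 and ITGB4 the 5 genes most alike in Pearson correlation are given.

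Alternatives were normexp correction (offset 50), loess with Aquantile, median centring, the deposited log2 values, processed signal, no filter or 1 that needs all 12 channels, outlier spots kept, the brightest probe per gene, the array as a random or fixed block, the replicate block, only the groups compared, the first 33 rows of PIM1 + MM replicate 2 or the first control and PIM1 array left out, and each sample left out. A group left with 1 sample takes its spread from the others. Samples with the same replicate number lay on the same slide.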

Additional observations from a re-analysis of the deposited data

Results flagged for a closer look

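For 3 subunits, the WT minus MM difference of NFATC1-transfected cells was called different with and without stable PIM1 by limma's test of the interaction. It was 0.65 larger on the log2 scale with stable PIM1 for ITGA3, with 0.36 without and 1.01 with it. For ITGA5 it was 0.62 larger, with 0.46 and 1.08. For ITGB1 it was 0.47 larger, with -0.33 and 0.14. In the interaction 2.21% of all genes were called. With median centring the 3 interactions were 0.39, 0.54 and 0.29, with standard errors of 0.436, 0.368 and 0.394, and none was called. ITGA5 was also not called with normexp correction (limma adjusted p = 0.0537). All 3 lost their calls in some of the fits without 1 sample, as described above.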

How the results depend on the processing

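The 28 member calls were refitted 530 times in all, and 439 refits kept the call, 88 kept the direction without the call and 3 reversed. Of the 124 refits that left out a sample, 78 kept the call. The number of members called moved by more than 1.5 times under these settings. The number of all genes called moved as well. In the interaction it was 563 as reported, 406 with normexp correction, 1039 with loess, 1475 with the filter in all 12 channels and 670 without the first 33 rows. A change in a member count can follow the calls over all genes, and is not read here as a result about the members. Median centring gave 1 member in PIM1 minus control and 0 in the 6 other comparisons that had calls, lost 24 calls and reversed ITGA6 (-0.35) and ITGB1 (-0.11) in PIM1 minus control and ITGB1 (0.14) in WT minus MM, and the cause was not tested. In WT minus MM, normexp correction, the processed signal and a fit of only the groups compared each gave 0, the array as a random block 4, and leaving out a sample 0 each time. In PIM1 + WT minus PIM1 + MM, loess gave 5, the random block 6 (26.9% of all genes called) and the fixed block 5 (25.6% of all genes called). In the interaction, leaving out a sample gave 0 to 2. In PIM1 + MM minus PIM1, loess, the filter in all 12 channels and leaving out the first 33 rows each gave 5, only the groups compared 0, and leaving out a sample 1 to 3. Samples with the same replicate number share a slide. Their deviations from the group means correlated between 0.05 and 0.83 over the 15 pairs of groups, with a median of 0.08 and 7 over 0.1. The main fit held no term for the slide, since the methods of the study name none. The replicate was fitted as a block in 1 alternative. The replicate block gave 7 members in PIM1 minus control and 3 in WT minus MM, where 27.6% and 1.01% of all genes were called. It gave 3 in the interaction and 4 in PIM1 + MM minus PIM1, where 2.68% and 14.9% of all genes were called. All 28 member calls were kept. ITGB8, ITGB3 and ITGA2 lay closest to the negative controls of the members, so background weighs most in their values. Their standard errors for a comparison of 2 groups were 0.0766, 0.0648 and 0.132. Those of ITGB8 and ITGB3 were below that of the brighter ITGB5 (0.114).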
